A study of Homo sapiens with 9 samples.

Results

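YY1 peaks that lie just downstream of a transcription start site (TSS) were examined. They are the binding sites whose nearest edge falls 1 to 1000 bp into the annotated transcript and which do not touch the TSS itself. The deposited table listed 23002 YY1 peaks, and 2189 of them (9.52%) met this rule, at 2103 gene symbols. They were set beside the 11202 peaks that overlap a TSS (distance 0) and, in places, beside 1226 peaks that end within 1 kb upstream of one. The chromatin came from SK-N-MC, a human tumour line labelled as neuroblastoma and as WT in genotype. The cells were transfected with plasmid DNA by Lipofectamine 2000 and overexpressed Htt1-550Q89, residues 1 to 550 of huntingtin with an expanded tract of 89 glutamines (HttQ89), or Htt1-550Q23, the same fragment with 23 glutamines (HttQ23). The paper describes both as EGFP fusions whose tract is encoded by CAG repeats, so the groups differ in the length of the repeat RNA as well. Each group had 3 YY1 libraries labelled as biological replicates, and the paper calls them biologically independent experiments. It does not state if each came from a separate transfection. The spread behind each p-value is that of these libraries, and the technical part of it is not known. Plasmid transfection reaches part of a culture, so the values average over transfected and untransfected cells. All values below are normalised read counts per peak. The 6 libraries held 927910 to 2344649 reads in peaks, HttQ89 replicate 1 had the fewest, and 22.5% of all peaks were at 0 in it.

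YY1 is a zinc finger protein that can activate or repress transcription and helps to hold enhancers and promoters together. Its sites are known to cluster at and just inside the start of genes. The recognition sequence contains the letters ATGG, and at some genes the ATG of the YY1 site is also the start codon of the protein. In Huntington's disease an expanded glutamine tract in huntingtin disturbs several transcription factors. The comparison of HttQ89 with HttQ23 asks how YY1 occupancy differs with the length of that tract and of the CAG repeat that encodes it. These 2 lengths cannot be told apart here.

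The sequences under YY1 are shown for the 8 strongest downstream peaks that carry the motif AAGATGGCG. Each is 30 bases of GRCh38, written 5′ to 3′ on the strand that reads the motif, with the motif in capitals. ZFX lies at chrX:24150256-24150285, EPC1 at chr10:32346652-32346681, FAM174B at chr15:92809382-92809411 and SFPQ at chr1:35192167-35192196. PCNT lies at chr21:46324436-46324465, CNNM2 at chr10:102918546-102918575, ATF4 at chr22:39521033-39521062 and PPP1R14B-AS1 at chr11:64247512-64247541.
ZFX: caccgcctccAAGATGGCGgctccccctcc
EPC1: cggcgaagagAAGATGGCGgccattttgtg
FAM174B: ggaaaacaacAAGATGGCGgcagccggggg
SFPQ: cggctcccctAAGATGGCGgcggccccctc
PCNT: cggcggattcAAGATGGCGgcggccaggag
CNNM2: gcccacttggAAGATGGCGgcgcgccgcag
ATF4: ggcaggaaccAAGATGGCGgcggcagggcg
PPP1R14B-AS1: gcccaccggcAAGATGGCGcgaggctcggg
Of these 8 sites, that of CNNM2 lies in coding sequence of exon 1, and the other 7 lie in intron 1. The sites of EPC1, FAM174B and PCNT read against the gene, and ZFX has a copy on each strand, of which the copy that reads against the gene is printed.

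The second set shows sites at which the ATG of the motif is an annotated start codon read in the direction of the gene. They are shown because the match then spans the first codon of the protein. CPD (carboxypeptidase D) lies at chr17:30378968-30378997 and GRK2, a receptor kinase, at chr11:67266687-67266716. ACIN1, an RNA-binding nuclear protein, lies at chr14:23095096-23095125 and LRIG1, a restrainer of growth factor receptors, at chr3:66500391-66500420.
CPD: gcgctgctggAAGATGGCGagcggccggga
GRK2: cgccgccgccAAGATGGCGgacctggaggc
ACIN1: tacctcacgcAAGATGGCGgagctggagga
LRIG1: cgctccagacAAGATGGCGcggccggtccg
All 4 sites lie in coding sequence of exon 1, between 24 bp (ACIN1) and 604 bp (LRIG1) from the TSS.

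The third set comes from ZNF genes, which encode C2H2 zinc finger proteins, many of them repressors that carry a KRAB domain. They are shown because the motif stands at a similar place in intron 1 of each. ZNF335 lies at chr20:45971926-45971955, ZNF678 at chr1:227563740-227563769 and ZNF675 at chr19:23686856-23686885.
ZNF335: gcgccaccacAAGATGGCGtcgggcctgga
ZNF678: agggtgttccAAGATGGCGgtccggcctcc
ZNF675: ctgcagccatAAGATGGCGgcgcgctgaca
These 3 motifs lie 261, 173 and 268 bp from the TSS, in the order printed.

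Downstream peaks were weaker than TSS-overlapping peaks in every library. Their median was 14.4, 28.7 and 48.9 in HttQ89 replicates 1, 2 and 3, and 47.7, 44.6 and 40.3 in HttQ23 replicates 1, 2 and 3. TSS-overlapping peaks had medians of 36.0, 47.4 and 100 in HttQ89 and of 93.3, 72.2 and 81.4 in HttQ23. The downstream median was thus 40.0%, 60.4% and 48.6% of the TSS median in HttQ89, and 51.1%, 61.8% and 49.5% in HttQ23. The ranges of that share overlapped between the groups. Averaged over the 6 libraries, the downstream peaks had a median of 36.2, against 73.2 at TSSs, and the upstream peaks had a median of 36.4. Among peaks above 0 in all 6 libraries, the downstream median was 64.1% of that at TSSs, in place of 49.5% over all peaks.

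**Figure D1:**
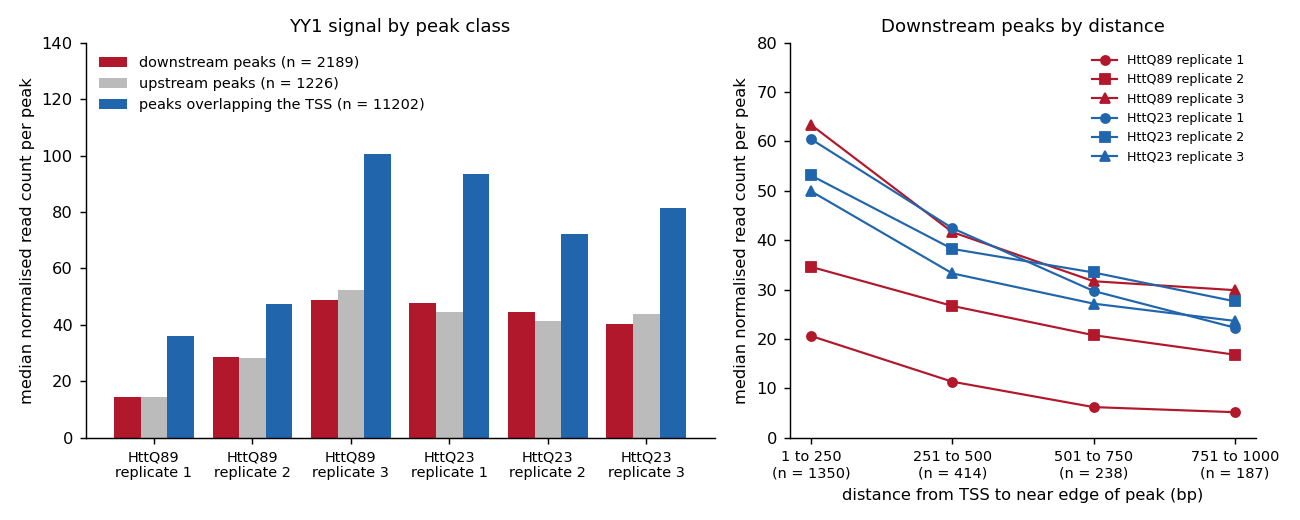
Left, bars show the median normalised read count per peak (y axis, from 0) in each of the 6 libraries for downstream, upstream and TSS-overlapping peaks, and the downstream bar is below the TSS bar in all 6. Right, points show the median of downstream peaks in 4 bins of distance from the TSS (x axis, bp), with HttQ89 libraries in red and HttQ23 libraries in blue; the median over peaks of the 6-library mean is 47.2 in the nearest bin and 20.8 in the farthest.

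The signal declined with distance from the TSS. The 1350 peaks that start up to 250 bp away had a median of 47.2 over the 6 libraries, the next 414, up to 500 bp, one of 30.8, the next 238, up to 750 bp, one of 24.4 and the last 187, up to 1000 bp, one of 20.8. The order of the bins was the same in each of the 6 libraries. Most downstream peaks were close, with a median distance of 167 bp, and 773 (35.3%) started within 100 bp. All but 1 of the peaks in the table had the same width, and peak centres of the downstream ones lay 201 to 1200 bp into the gene. At the near limit of the rule, the UNG and NCK2 peaks (distance 1 bp) had 6-library means of 158 and 81.0. At the far limit, NKX2-8 (1000 bp) had 19.8 and TUBA1C (995 bp) 13.1, and just outside it DVL1 (1001 bp) had 13.7 and ENTREP3 (1004 bp) 31.0.

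Intron 1 was the commonest place for a downstream peak. By the annotated transcript, 1207 centres (55.1%) lay in intron 1, 729 (33.3%) in exon 1, 150 in a later exon, 55 in a later intron and 48 beyond the transcript. Of the TSS-overlapping peaks, 11.4% were centred in intron 1, 48.2% in exon 1 and 40.3% outside the transcript. Downstream peaks covered the start codon in 18.3% of cases and the end of exon 1 in 38.3%, against 32.3% and 52.7% of TSS-overlapping peaks. Their centres lay in coding sequence in 18.7%, against 9.52% at TSSs. A TSS on the opposite strand within 1 kb was annotated for 467 downstream peaks (21.3%), against 35.3% of TSS-overlapping peaks. Another annotated TSS lay inside 57 downstream peaks (2.60%). Protein-coding genes held 1890 of the 2189 peaks and long noncoding RNA genes held 256.

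A few downstream peaks were among the strongest in the table. ZFX, an X-linked zinc finger activator of transcription, had the highest mean of all 23002 peaks. It held 3316, 1955 and 4809 in HttQ89 replicates 1, 2 and 3, against 4896, 2703 and 4600 in HttQ23 replicates 1, 2 and 3. Its groups overlapped, and replicate 2 was the lowest library within each group. EPC1, a subunit of the NuA4/TIP60 histone acetyltransferase complex, ranked 6 with 1847, 981 and 2632 in HttQ89 and 2849, 1365 and 2644 in HttQ23. FAM174B ranked 17 and held 1019, 625 and 1729 in HttQ89, against 1867, 859 and 1641 in HttQ23. Both peaks showed the same overlap of groups and the same low replicate 2 as ZFX.

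The 12 strongest downstream peaks also included those of ZFR, SFPQ, CIRBP and PRRC2A. ZFR (zinc finger RNA-binding protein) averaged 974 ± 288 in HttQ89 and 1203 ± 224 in HttQ23 (SD, n = 3 each). SFPQ, a splicing and paraspeckle protein, averaged 773 ± 318 in HttQ89 and 943 ± 294 in HttQ23. CIRBP, the cold-inducible RNA-binding protein, averaged 673 ± 263 in HttQ89 and 917 ± 171 in HttQ23, and PRRC2A averaged 754 ± 322 in HttQ89 and 983 ± 357 in HttQ23. In all 4 the difference was within the spread of the libraries, with exact two-sided permutation p-values of 0.2 to 0.5, where 3 against 3 libraries cannot go below 0.1. The other peaks of the leading 12 lay at KIF5B (a kinesin motor, mean 738), STAG1 (a cohesin subunit, 690.1), EFCAB2 (671), PCNT (the centrosomal scaffold pericentrin, 638) and CNNM2 (a magnesium transport protein, 633). Only 24 downstream peaks were in the top 500 of the table and 7 in the top 100. In all, 79 downstream peaks had a mean above 200, and 585 had one below 20.

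The motif was less common under downstream peaks than under TSS peaks. AAGATGGCG, searched on both strands of each peak, was present in 55 of 2189 downstream peaks (2.51%, 95% Clopper-Pearson interval 1.90% to 3.26%), against 576 of 11202 TSS-overlapping peaks (5.14%, 4.74% to 5.57%). It was in 13 upstream peaks (1.06%) and in 707 of all peaks (3.07%). Its core ATGGCG, which every copy of the longer motif contains, was in 486 downstream peaks (22.2%), against 28.6% at TSSs and 32.7% of all peaks. In downstream peaks the motif read in the direction of the gene in 46 cases and against it in 10, with ZFX in both. It stood at a median of 274 bp from the TSS, against 22 bp in TSS-overlapping peaks. In 37 downstream peaks the motif was in intron 1 and in 16 it was in exon 1. Its ATG was the start codon in 10 of 55 downstream peaks (18.2%), against 247 of 576 TSS-overlapping peaks (42.9%).

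**Figure D2:**
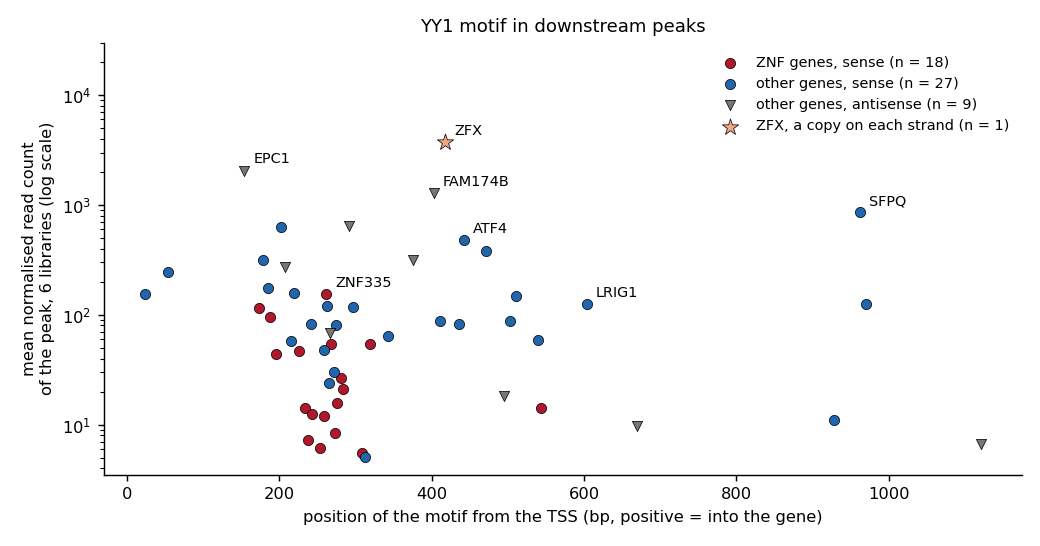
Each point is 1 of the 55 downstream peaks with AAGATGGCG, placed by the distance of the motif from the TSS (x axis, bp) and the 6-library mean normalised read count of the peak (y axis, log scale). Colours and symbols give ZNF or other genes and the direction of the motif; the 18 ZNF peaks all read in the direction of the gene and lie between 173 and 544 bp.

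Downstream peaks with the motif were stronger than those without it, with medians of 80.9 and 35.9 over the 6 libraries. The gap was present in each library, with 57.7, 48.4 and 91.4 against 14.4, 28.7 and 48.9 in HttQ89 and 78.5, 61.6 and 98.9 against 47.7, 43.5 and 40.3 in HttQ23. It did not hold in ZNF genes, whose 18 downstream peaks with the motif had a median of 18.4, against 28.4 for their 66 without it. The other 37 downstream peaks with the motif had a median of 119. Of the 10 strongest downstream peaks, 4 held the motif, 9 held the core and 9 were centred in intron 1. STAG1 was the exception for the core. The median strength was 36.1 with no core copy (1703 peaks), 35.1 with 1 (431 peaks), 58.1 with 2 (47 peaks) and 224 with 3 or more (8 peaks). Those 8 peaks, named after their values were seen, lay at ZFX, PRRC2A, YWHAE, NKX2-4, ZNF689, SOX3, EID2 and MAGEA8. MAGEA8 had 6 core copies and a mean of 13.1, the lowest of the 8.

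A TSS-overlapping peak was also present at 475 of the 2103 genes (22.6%). The downstream peak was the weaker in 370 of them (77.9%) and the stronger in 105, with a median log2 ratio of downstream to TSS peak of -1.24. In single libraries the share with a weaker downstream peak was 69.7%, 71.8% and 75.2% in HttQ89 and 73.5%, 73.7% and 76.0% in HttQ23. The 2 peaks often belong to different promoters of the gene, and only 130 of the 475 pairs lay within 2 kb, measured between peak starts. The median signed offset was 2066 bp, positive where the downstream peak lies further along the gene. Offsets in opposite directions cancel in it, so it is not a typical separation. Only 60 downstream peaks (2.74%) had another peak whose start lay within 1 kb of their own start, and the closest starts were 627 bp apart. At the 130 genes whose peaks lay within 2 kb, the downstream peak was the weaker in 102.

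Some downstream peaks far exceeded the TSS peak of the same gene. At EMX1, a homeobox gene of the developing cortex, the downstream peak held 73.1, 93.9 and 203 in HttQ89 and 258, 154 and 167 in HttQ23. Its TSS peak, 1662 bp away, held 34.0, 63.3 and 75.1 in HttQ89 and 120, 53.1 and 72.7 in HttQ23. The downstream peak of EMX1 was thus the higher in all 6 libraries. OSBPL3, an oxysterol-binding protein, had a 6-library mean of 79.8 downstream against 9.60 at the TSS. SCAF11, a splicing-associated protein, had 119 downstream against 29.1 at the TSS. At larger gaps, PCNT had 638 downstream against 13.3 at its distant TSS-overlapping peak, and CIRBP had 795 downstream against 72.1 at a gap of 2677 bp. These genes were chosen for this difference, so it is a description.

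**Figure D3:**
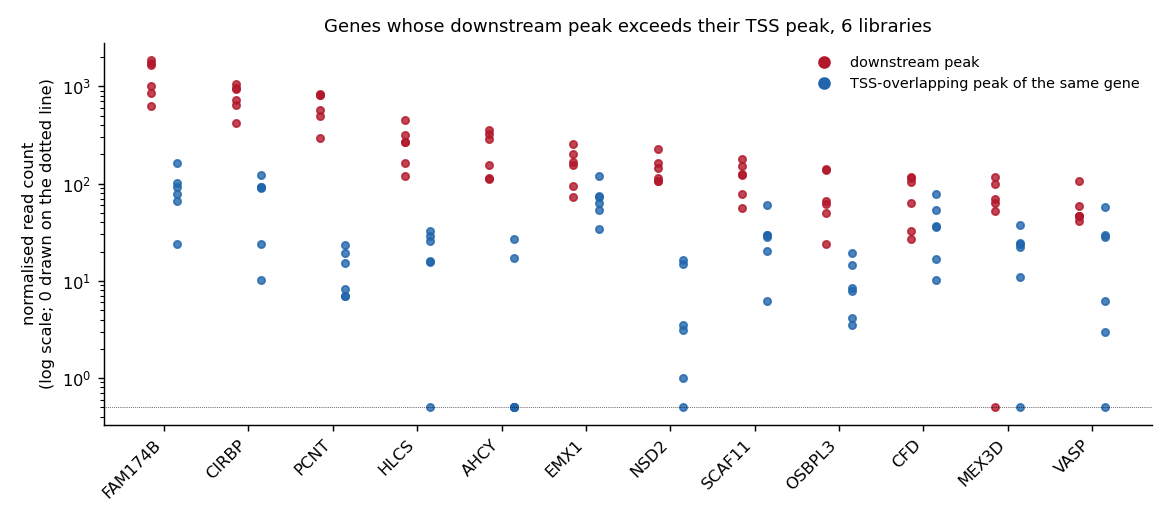
Each column of points is 1 peak in the 6 libraries (normalised read count, log scale, values of 0 drawn on the dotted line), with the downstream peak in red and the TSS-overlapping peak of the same gene in blue. The 12 genes were chosen because the downstream peak is the stronger; EMX1, SCAF11 and OSBPL3 have 6-library means of 158, 119 and 79.8 downstream.

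At most downstream peaks the HttQ89 mean was below the HttQ23 mean, by a median close to that of all peaks, and no single difference passed the test. Of the 2189 downstream peaks, 1474 (67.3%) were above 0 in all 6 libraries and entered the test, against 82.1% of TSS-overlapping peaks. The median log2 difference of HttQ89 from HttQ23, on log2(value + 1), was -0.51 at downstream peaks, -0.50 at TSS-overlapping peaks, -0.55 at upstream peaks and -0.50 over all 14698 tested peaks. It was negative at 1248 downstream peaks and positive at 226 (84.7% negative, against 82.8% of all peaks). Relative to the mean of the HttQ23 libraries, the downstream median was -1.06, -0.71 and 0.18 in HttQ89 replicates 1, 2 and 3. The negative median was thus seen in HttQ89 replicates 1 and 2, the libraries with the fewest reads in peaks, and not in replicate 3. With each library centred on its median over all tested peaks, the downstream median was 0.02. Less YY1 at each site and a lower yield of the immunoprecipitation cannot be told apart here.

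No downstream peak passed the test of HttQ89 against HttQ23. limma with Benjamini-Hochberg adjustment over the 14698 peaks called 0 downstream peaks and 0 in all (0.0%), and the lowest adjusted p at a downstream peak was 0.818. edgeR and DESeq2 on recovered reads also called 0. Both rescale the libraries to each other, which the limma fit does not. At an unadjusted limma p of 0.05, 71 of 1474 downstream peaks were lower (4.82%, against 4.02% of all tested peaks) and 2 were higher (0.136%, against 0.204%), both close to the background. At the same unadjusted level edgeR gave 7 lower (background 0.51%) and 12 higher (0.81%), and DESeq2 gave 8 lower (0.578%) and 21 higher (1.25%). Without HttQ89 replicate 3, limma put 43 downstream peaks past the adjusted threshold, of 514 peaks in all. Without HttQ89 replicate 1 it put 14 lower at the unadjusted level in place of 71, and 160 of all tested peaks in place of 591. The 2 higher peaks, named for their small number, were SH3PXD2A (an invadopodia scaffold) with 113, 17.8 and 29.9 in HttQ89 against 38.2, 3.19 and 2.63 in HttQ23, and LOC283028. The groups of SH3PXD2A overlapped.

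Values of the 3 HttQ89 libraries lay below all 3 HttQ23 values at 71 tested downstream peaks (4.82%, against 4.27% of all tested peaks). They lay above at 8 (0.543%, against 0.537%). Both shares are near those of all peaks. Of the 71, 19 were also among those with an unadjusted limma p below 0.05. None of the 71 carried AAGATGGCG, which was in only 48 of the 1474 tested downstream peaks. Its absence from so small a set is not a result about motif sites. HttQ89 replicate 1 was the lowest library at 51 of the 71, replicate 2 at 15 and replicate 3 at 5. In these 71 peaks the medians were 16.5, 29.7 and 34.4 in HttQ89 and 63.6, 54.2 and 47.3 in HttQ23.

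The 10 peaks of the lower set with the lowest limma p are described by name. ADORA2A encodes an adenosine receptor that marks indirect-pathway neurons of the striatum. Its peak held 2.06, 43.5 and 62.5 in HttQ89, against 83.8, 106 and 63.0 in HttQ23, a log2 difference of -2.02 ± 0.77 (SE, limma adjusted p = 0.818). The groups nearly touched, at replicate 3 of each. TAMALIN, a scaffold of metabotropic glutamate receptors, held 1.03, 6.92 and 21.7 in HttQ89 against 23.3, 39.3 and 42.0 in HttQ23. KCNJ14, an inward rectifier potassium channel, held 3.09, 8.89 and 25.3 in HttQ89 against 63.6, 37.2 and 40.3 in HttQ23. In both, HttQ89 replicate 3 came nearest to the HttQ23 values.

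ROBO3, an axon guidance receptor of the midline, held 1.03, 17.8 and 4.53 in HttQ89 against 22.3, 32.9 and 25.4 in HttQ23. MECOM, a zinc finger regulator of blood stem cells, was the strongest of the 10 named here, with 23.7, 81.0 and 106 in HttQ89 against 232, 154 and 133 in HttQ23, a log2 difference of -1.50 ± 0.62 (SE). The groups of ROBO3 and MECOM were apart, and replicate 1 of HttQ89 was the lowest library in both. The remaining ones were PPM1N (a phosphatase, log2 difference -2.28), PYY (the gut hormone peptide YY, -2.34), CHPF (chondroitin polymerising factor, -2.15), PYY2 (-2.09) and FAM120B (-1.60). Limma adjusted p was 0.818 at all 10. Each stayed negative under every alternative run for it, although PYY and ROBO3 have no value under the stricter filter (6-library mean of 20 or more).

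The size of these differences depended on HttQ89 replicate 1 at 7 of the 10. Without that library the log2 difference was -0.65 at ADORA2A, -1.38 at TAMALIN, -1.43 at ROBO3, -0.85 at MECOM, -1.30 at PPM1N, -1.17 at PYY2 and -0.64 at FAM120B. With edgeR on all 6 libraries it was -0.94 at ADORA2A, -1.21 at ROBO3, -0.89 at MECOM, -1.50 at PPM1N, -1.33 at PYY2 and -0.82 at FAM120B. The edgeR values include its rescaling of the libraries, so they are no separate check on HttQ89 replicate 1. KCNJ14 and CHPF moved by less than 1.5 times under every alternative run. With a pseudocount of 8 in place of 1, PYY was at -1.27.

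**Figure D4:**
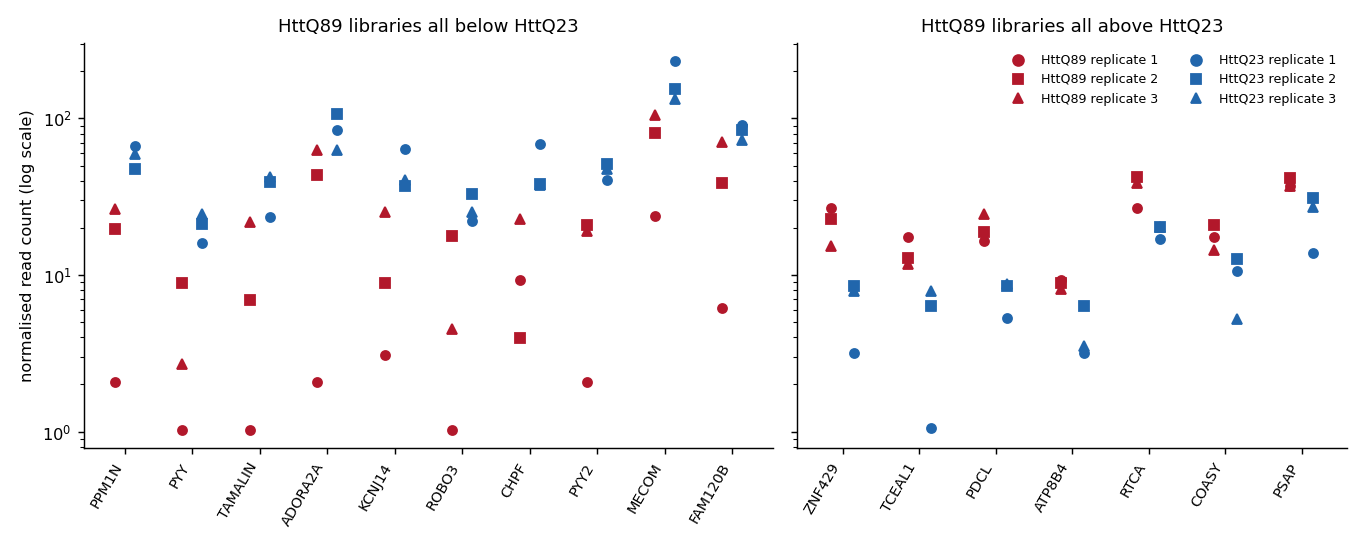
Points are normalised read counts (log scale) in the 3 HttQ89 libraries (red, left of each pair) and the 3 HttQ23 libraries (blue) for downstream peaks whose groups do not overlap. The left panel has the 10 lower peaks with the lowest limma p, and the right panel 7 of the 8 higher peaks; PPM1N and ZNF429 have log2 differences of -2.28 and 1.65.

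The 8 higher peaks were weak, with a median 6-library mean of 13.9, against 39.6 for the 71 lower ones. ZNF429 held 26.8, 22.7 and 15.4 in HttQ89 against 3.18, 8.50 and 7.88 in HttQ23, a log2 difference of 1.65 ± 0.86 (SE, limma adjusted p = 0.818). It was the only one of the 8 with the motif, which 48 of the 1474 tested downstream peaks carried. PSAP, the precursor of lysosomal saposins, held 37.1, 41.5 and 37.1 in HttQ89 against 13.8, 30.8 and 27.1 in HttQ23, with HttQ23 replicate 2 the nearest to the HttQ89 values. RTCA, an RNA cyclase, averaged 36.1 ± 8.24 in HttQ89 and 19.1 ± 1.84 in HttQ23 (SD, n = 3 each). TCEAL1, PDCL, ATP8B4 and COASY (coenzyme A synthase) had log2 differences of 0.88 to 1.53.

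Zinc finger genes held the largest named group of motif-bearing downstream peaks. ZNF genes had 84 downstream peaks and 250 TSS-overlapping ones, and 18 of the 84 (21.4%) carried AAGATGGCG, against 8.40% of their TSS-overlapping peaks and 2.51% of all downstream peaks. These 18 peaks made up 32.7% of the 55 downstream peaks with the motif. In all 18 the motif read with the gene, in 17 it lay in intron 1, in none was it a start codon, and its median position was 260 bp from the TSS. Chromosome 19 held 15 of the 18. Paralogues of this family have similar sequence, and reads that fit several copies were removed by the authors' filter for unique alignment, so single values at these genes are uncertain.

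Among those 18 ZNF peaks positive differences were the more frequent. Of the 14 tested, 11 had a positive and 3 a negative log2 difference, with a median of 0.34, against -0.36 for 49 tested ZNF peaks without the motif, -0.39 for 34 other downstream peaks with the motif and -0.50 for all tested peaks. This subset was set apart after its values were seen, and the difference between the sets was not tested. The sets were split by gene symbol alone, and of the 34 other peaks with the motif 31 were negative and 3 positive. Among these 34, IPO5P1, RPSA2 and KRBOX5 have the motif read with the gene in intron 1, at 262, 265 and 274 bp from the TSS. Their log2 differences were -0.57, -0.70 and -0.79. ZNF678 held 175, 41.5 and 166 in HttQ89 against 70.0, 28.7 and 208 in HttQ23. ZNF335 held 169, 116 and 187 in HttQ89 against 141, 104 and 203 in HttQ23, and ZNF675 held 62.8, 30.6 and 89.6 in HttQ89 against 38.2, 31.9 and 74.4 in HttQ23. In these 3 the groups overlapped, and replicate 2 was the lowest library of each group.

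Relative to the HttQ23 mean, the median of the 14 peaks was 0.12, -0.61 and 0.47 in HttQ89 replicates 1, 2 and 3 and -0.36, -0.53 and 0.58 in HttQ23 replicates 1, 2 and 3. The ranges of the groups overlapped. The median stayed positive with each library left out, at 0.07 to 0.67. After the alternative scalings it was 0.75 to 0.88, but these scalings also raised the median of all downstream peaks, from -0.51 to between -0.03 and 0.02. The sign after scaling is thus no separate check of a median that was positive before it. GC content moved with this result, at a median of 63.8% in the 18 peaks against 68.6% in ZNF peaks without the motif and 70.3% in all downstream peaks. In TSS-overlapping ZNF peaks with the motif (20 tested) the median log2 difference was 0.14 and the median GC content was 64.8%. The part of GC content in these differences was not tested.

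**Figure D5:**
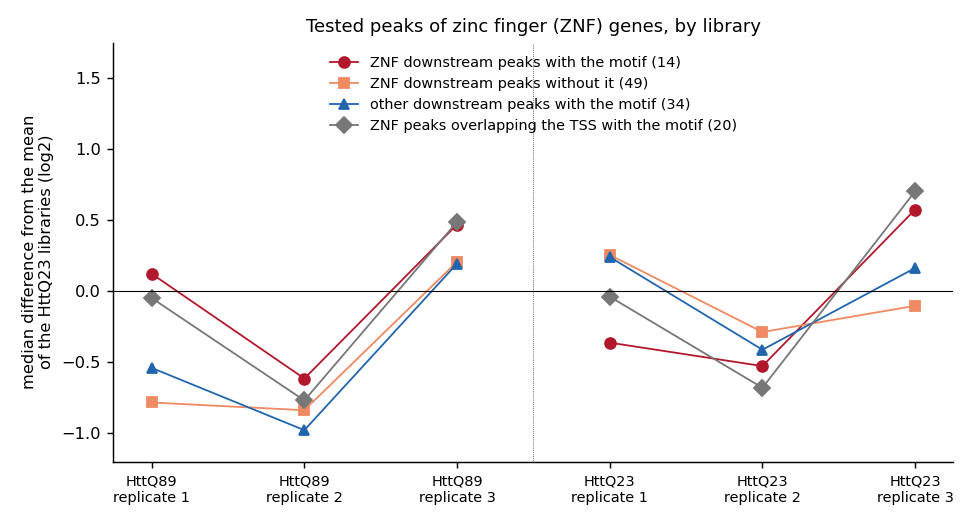
Points show, for each library (x axis, HttQ89 left of HttQ23), the median log2 difference of 4 sets of tested peaks from the mean of the HttQ23 libraries (y axis), with numbers of peaks in brackets. In HttQ89 replicate 1 the ZNF downstream peaks with the motif are at 0.12 and those without it at -0.78.

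Across all downstream peaks, base composition and strength moved with the values of HttQ89 replicate 1. In the lowest of 5 bands of GC content (median 51.5%) its median difference from the HttQ23 mean was -0.48, in the band with a median of 73.1% it was -1.87, and in the highest band (median 77.8%) it was -1.35. HttQ89 replicates 2 and 3 moved less, with -0.42 and 0.41 in the lowest band, -0.73 and 0.14 in the band at 73.1% and -0.70 and 0.09 in the highest. The HttQ23 libraries moved with GC content too. Replicates 1, 2 and 3 were at -0.37, -0.49 and 0.52 in the lowest band and at 0.28, -0.02 and -0.32 in the highest. These bands include peaks at 0. Peaks of the lowest band were weak, with a median HttQ23 mean of 9.64, against 59.9 in the band at 73.1%, which limits how far they can fall. Among peaks with an HttQ23 mean of 20 to 50, HttQ89 replicate 1 was at 0 in 40.1% of downstream peaks, against 25.9% of TSS-overlapping and 42.1% of upstream peaks. At a mean of 50 to 100 the shares were 10.8% of downstream, 11.5% of TSS-overlapping and 15.5% of upstream peaks. Above a mean of 200 it was at 0 in none of the 3 classes. The 715 downstream peaks left out of the test had a median of 17.9, and 405 of them were at 0 in HttQ89 replicate 1 alone. Among those left out, RFPL2 and LINC03021 were at 0 in all 3 HttQ89 libraries, and TTLL10-AS1, BRD2 and EOLA2 were at 0 in all 3 HttQ23 libraries, with 6-library means of 3.09 to 6.89.

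Ion channels and receptors had 27 downstream and 104 TSS-overlapping peaks. All 13 tested downstream ones were negative, against 82.8% of all tested peaks, with a median of -0.99, against -0.61 at their TSS peaks. At the strongest members, CACNA1B and KCNA3, the groups overlapped. Those without overlap between groups included KCNJ14 and CACNG2, a regulator of AMPA receptors. CACNG2 held 12.4, 19.8 and 39.8 in HttQ89 against 53.0, 65.8 and 42.0 in HttQ23. HttQ89 replicate 1 was the lowest library, and HttQ89 replicate 3 came nearest to the HttQ23 values. Axon guidance genes had 12 downstream peaks, and all 9 tested were negative, with a median of -0.70. Of these 9, ROBO3, PLXND1 and EFNA4 were lower at an unadjusted limma p below 0.05, against 4.02% of all tested peaks, and ROBO3 alone had groups that did not overlap.

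WNT pathway genes had 8 downstream peaks, 5 of them tested, 4 negative and 1 positive, with a median of -0.71. At 3 of the 5 the groups did not overlap and HttQ89 was lower, against 4.27% of all tested peaks. The 5 peaks were not tested as a group. WNT5A, a ligand of noncanonical WNT signalling, held 56.6, 72.1 and 75.1 in HttQ89 against 144, 116 and 87.6 in HttQ23. WNT5B held 47.4, 63.3 and 78.7 in HttQ89 against 132, 98.8 and 109 in HttQ23, and WNT3A held 17.5, 26.7 and 31.7 in HttQ89 against 63.6, 31.9 and 33.3 in HttQ23. The groups of WNT3A nearly touched, at 31.7 in HttQ89 replicate 3 and 31.9 in HttQ23 replicate 2. At WNT5A all 3 HttQ89 libraries were close to each other. None of the 3 had an unadjusted limma p below 0.05, and the lowest was 0.184 (WNT5B). The receptor gene FZD1 had the strongest WNT peak, with 99.9, 76.1 and 161 in HttQ89 and 227, 129 and 129 in HttQ23, and its groups overlapped.

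Developmental transcription factors had the highest proportion of downstream peaks among the groups, with 66 downstream and 90 TSS-overlapping peaks. Of 45 tested, 36 were negative and 9 positive, with a median of -0.54, close to that of all downstream peaks. None of the 66 had the motif. NKX2-4, a homeobox gene with 4 core copies in its peak, averaged 220.1 ± 91.7 in HttQ89 and 273 ± 58.8 in HttQ23 (SD, n = 3 each). FOXD1, a forkhead factor, averaged 199 ± 36.4 in HttQ89 and 177 ± 48.9 in HttQ23. Groups without overlap, lower in HttQ89, were seen at HOXA10 and FEZF1 among others, and FEZF1, a factor of forebrain development, held 13.4, 16.8 and 12.7 in HttQ89 against 29.7, 28.7 and 33.3 in HttQ23. Its log2 difference was -1.05 ± 0.84 (SE, limma adjusted p = 0.818).

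Housekeeping groups had few downstream peaks. Mitochondrial ribosomal protein genes had 1 downstream peak (MRPS6) and 49 at TSSs, proteasome genes 0 and 31, and cytosolic ribosomal protein genes 6 and 48. Oxidative phosphorylation genes had 10 and 59, with 6 negative and 2 positive among 8 tested. Splicing genes had 12 and 78, and all 9 tested were negative, with a median of -0.51. SRSF7, a splicing factor, averaged 225 ± 115 in HttQ89 and 313 ± 81.7 in HttQ23 (SD, n = 3 each). Over all classes of gene there were 2189 downstream and 11202 TSS-overlapping peaks, so each of these groups had a smaller downstream share than the table as a whole. Genes of RAB, VPS and SNX membrane trafficking had 10 and 90, chromatin enzymes 9 and 68, transcription initiation genes 6 and 67, EIF translation factors 4 and 34 and Hippo pathway genes 2 and 15. Together these last groups gave between 1 and 7 tested peaks each, and none had an unadjusted limma p below 0.05.

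Long noncoding RNA genes had 256 downstream peaks and 1152 TSS-overlapping ones. Of 144 tested downstream, 117 were negative and 27 positive, with a median of -0.47, the same as at their TSS peaks. LINC01134 had the strongest, with 499, 258 and 613 in HttQ89 and 538, 321 and 695 in HttQ23, and its groups overlapped.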

How the data were processed

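Chromatin bound by YY1 was sequenced in 3 HttQ89 and 3 HttQ23 libraries. The 3 input libraries were not used. Per the study's methods and the submitters' processing notes, reads were checked with FastQC 0.11.8, trimmed with cutadapt 3.7, aligned to GRCh38.p14 with Bowtie2 2.4.1, kept where uniquely aligned, cleared of blacklisted regions with bedtools 2.29.2, used to call peaks with MACS3 3.0.1, and given their distances by ChIPseeker 1.38.0. The sources used here do not state if calling pooled the libraries. The authors deposited a signal of DiffBind, in which the reads of a peak are divided by a factor for sequencing depth. Such scaling keeps a difference in yield between libraries. In each library 100% of values were whole multiples of 1 step within a tolerance of 0.1 reads, so whole reads were recovered for edgeR and DESeq2.

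Peaks above 0 in all 6 libraries (14698) were compared with limma 3.58.1 in R 4.3.3 (two-sided, eBayes with a trend after lmFit, no covariate) on log2(value + 1), with Benjamini-Hochberg adjustment over all of them at 0.05. The scale understates changes of weak peaks, and the variance of each peak was set to the trend alone, so errors follow peak strength. Single peaks were compared by exact permutation tests. Distances, exons and start codons came from GENCODE v44, in which all 23002 transcripts were found, and all 2189 distances matched. Sequence was read from GRCh38. Motif positions are those of the A of the ATG in the motif, and intervals cover counting error only. On simulated counts for the 14698 peaks of the comparison of HttQ89 with HttQ23, drawn at their dispersion of 0.183, 2% of changes of 2-fold were recovered, 32% of 4-fold and 94% of 8-fold. The simulated libraries shared 1 mean at each unchanged peak, so they held no difference in yield, and recovery in the real libraries may be lower.

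Peaks were named by a rule: the 12 strongest, the non-overlapping ones with the lowest p, the strongest with the motif, the strongest of each gene group, those at the limits of distance and genes with both peaks. CACNG2, WNT5B, WNT3A, HOXA10, FEZF1 and EFNA4 fall outside this rule and were named for groups that did not overlap or for a low p. Other exceptions are stated where they occur. Members, groups and tests were chosen with earlier results of these data known. Alternatives were edgeR 4.0.16, DESeq2 1.42.0, other filters, pseudocounts and scalings, a replicate block and leaving out each library. edgeR was run with TMM scaling and DESeq2 with its own size factors. Both thus rescale the libraries, as do the median centring, quantile and TMM alternatives. The ZNF subset with the motif was added after seeing the data, as were the bands of GC content and strength. The HTT locus was not analysed. Some peaks that the rule takes are not reported here.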

Additional observations from a re-analysis of the deposited data

How the results depend on the processing

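The number of downstream peaks lower in HttQ89 at an unadjusted p of 0.05 was 71 with limma, 28 with no filter, 35 with a mean of at least 20, 40 with a pseudocount of 8, 9 after median centring, 12 after quantile normalisation, 10 with TMM scaling, 7 with edgeR and 8 with DESeq2. In the same order, the number among all tested peaks was 591, 345, 444, 424, 94, 133, 110, 75 and 85. With 1 library left out it was 14 (without HttQ89 replicate 1) to 412 (without HttQ89 replicate 3), and 18 and 25 without HttQ23 replicates 1 and 2, against 160, 4516, 140 and 240 of all peaks under those 4 settings. The number higher was 2 with limma, 0 with a mean of at least 20, 15 after median centring, 13 after quantile normalisation, 11 with TMM scaling, 12 with edgeR and 21 with DESeq2, and 1 to 10 with 1 library left out; among all peaks it was 30, 1, 182, 136, 132, 119 and 183, and 14 to 157. At an adjusted p of 0.05, 43 passed without HttQ89 replicate 3, TAMALIN, ADORA2A and MECOM among them, of 514 among all peaks, and 0 downstream peaks under every other setting run. Causes were not tested. The median difference of downstream peaks was -0.88 to -0.23 with 1 library left out and -0.03 to 0.02 under the 3 other scalings, and it differed from that of TSS-overlapping peaks by -0.10 to 0.03 throughout. Strength relative to TSS peaks was 49.5%, and 64.1% among peaks above 0 in every library. The motif share was 2.51%, 22.2% for the core and 1.23% when only the centre of each peak was searched. The difference of ZFX, -0.32, changed sign at 0.22 (median centring and DESeq2), 0.12 (quantile), 0.17 (TMM), 0.21 (edgeR) and 0.022 (without HttQ89 replicate 2), and was -0.63 to 0.022 with 1 library left out. Deviations of libraries with the same replicate number correlated at 0.04, 0.39 and 0.15 for numbers 1, 2 and 3, against -0.29 to 0.13 between different numbers. Numbers 2 and 3 thus exceeded every pair of different numbers, and number 1 did not. The main fit had no replicate block, and a shared replicate effect was not tested. With a replicate block 4 downstream peaks were higher in place of 2, and no downstream peak and 1 of all peaks passed the adjusted threshold. Of the 715 downstream peaks at 0 in at least 1 library, 540 were at 0 in HttQ89 replicate 1 and 122 in HttQ89 replicate 2, whose reads in peaks numbered 927910 and 1012558, and the part of depth was not tested.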
